A study of Mus musculus with 16 samples.

Results

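The spindle assembly checkpoint genes measured here were *Bub1*, *Bub1b*, *Bub3*, *Ttk*, *Mad1l1*, *Mad2l1*, *Cdc20*, *Zw10*, *Kntc1* and *Zwilch*. They were chosen by name, as the kinases, MAD proteins, CDC20 and ROD–ZWILCH–ZW10 (RZZ) subunits whose work at the kinetochore is tied to KNL1, and no measured value was part of the rule. All 10 were found by symbol among the 51912 genes listed for each library. Total RNA from cerebral cortex of mouse embryos at E15.5 was read by Click-seq, in which a unique molecular identifier (UMI) lets PCR copies of a cDNA be counted once, in 16 libraries of 15 mice. The study asked what *Knl1* deletion changes in the cortex, and which of the changes need p53.

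The 7 ctrl mice were labelled as controls. Of these, 5 (2, 6, S3, S1 and T3) were wild type for *Knl1*, which the labels call by its older name *Casc5*, and 2 (T4 and T5) were heterozygous. The labels of ctrl mice give no *Trp53* genotype and do not say whether they carried Cre. The 4 cKO mice (5, 7, S2 and F3) had *Knl1* deleted by *hGFAP-Cre*, and the 4 dKO mice (T2, T8, F1 and F7) had both *Knl1* and *Trp53* deleted by the same driver. *hGFAP-Cre* acts in cortical neural progenitor cells (NPCs), so neurons born before it acts and cells of other lineages in the dissected cortex are not targeted. Every group held males and females, and the labels name no treatment. The mice came from 4 litters. Litter 1 held ctrl 2 and 6 and cKO 5 and 7, litter 2 held ctrl S3 and S1 and cKO S2, litter 3 held ctrl T3, T4 and T5 and dKO T2 and T8, and litter 4 held cKO F3 and dKO F1 and F7. There were also 3 batches. Batch 1 held litter 1 with ctrl S3 and cKO S2, batch 2 held ctrl S1 alone, and batch 3 held litters 3 and 4.

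The checkpoint holds a cell in metaphase until every chromosome is attached to the spindle. The kinase MPS1 (*Ttk*) phosphorylates KNL1, the phosphorylated repeats of KNL1 bind BUB3 with BUB1 or BUBR1 (*Bub1b*), and BUB1 brings MAD1 (*Mad1l1*) with MAD2 (*Mad2l1*) to the kinetochore. MAD2, BUBR1 and BUB3 then join CDC20 in the mitotic checkpoint complex, which keeps the anaphase-promoting complex (APC/C) from its targets. The RZZ complex, made of ROD (*Kntc1*), ZWILCH and ZW10, is a further route by which MAD1–MAD2 reaches the unattached kinetochore. Most of these proteins are made as cells approach mitosis, and in the E15.5 cortex the dividing cells are the apical progenitors of the ventricular zone and the intermediate progenitors of the subventricular zone, beside a larger number of neurons that no longer divide.

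Many genes made late in the cell cycle share short elements near their start, which is why promoter letters are shown here. The cell cycle genes homology region (CHR) is bound by the DREAM and MYB–MuvB complexes, often with a CCAAT box that binds NF-Y nearby. RefSeq promoter windows of GRCm38.p6, from 250 bases before to 50 bases after a start, were given for 9 of the 10 genes, with none for *Zwilch*. On either strand, the CHR letters TTTGAA or TTCGAA were in a window of 7 of these 9 genes and in 19.2% of all 32851 windows. A CCAAT box (CCAAT or its complement ATTGG) was in 6 of the 9 and in 37.4% of all windows, and both were in the same 6 and in 7.52% of all windows. The letters TTCCCGC, an E2F-like element, were in the window of *Zw10* alone among the 9, and in 4.6% of all windows. The genes with both elements were *Bub1*, *Bub1b*, *Bub3*, *Ttk*, *Cdc20* and *Kntc1*, and *Zw10* had a CHR without a CCAAT box. *Mad1l1* and *Mad2l1* had neither. The stretches that follow run 5′ to 3′ on the gene's strand from 80 bases before to 20 bases after the start. They show 5 genes with both elements close to the start and *Mad1l1* as the contrast, with CHR and CCAAT letters of either strand in capitals. In *Kntc1* the last base of the CCAAT box is also the first of the CHR.
*Ttk*, chr9:83834609-83834708, plus strand: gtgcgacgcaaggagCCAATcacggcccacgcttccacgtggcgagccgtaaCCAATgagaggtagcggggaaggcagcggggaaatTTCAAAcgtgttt
*Bub1*, chr2:127831840-127831939, minus strand: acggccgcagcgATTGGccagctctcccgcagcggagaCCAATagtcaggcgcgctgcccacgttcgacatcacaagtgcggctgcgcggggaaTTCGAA
*Bub3*, chr7:131560290-131560389, plus strand: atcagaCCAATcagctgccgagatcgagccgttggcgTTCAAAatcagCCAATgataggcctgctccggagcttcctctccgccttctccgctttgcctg
*Cdc20*, chr4:118437324-118437423, minus strand: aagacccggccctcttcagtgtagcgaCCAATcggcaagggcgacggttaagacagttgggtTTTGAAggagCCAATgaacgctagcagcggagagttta
*Kntc1*, chr5:123749646-123749745, plus strand: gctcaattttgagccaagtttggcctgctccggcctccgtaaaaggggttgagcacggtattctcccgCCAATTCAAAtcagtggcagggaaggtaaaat
*Mad1l1*, chr5:140321533-140321632, minus strand: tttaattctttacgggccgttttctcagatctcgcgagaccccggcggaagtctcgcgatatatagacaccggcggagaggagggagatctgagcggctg
A match of letters is a description of the window and was not tested as a binding site.

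Depth differed between the groups. Summed over genes, a ctrl mouse had from 399832 to 3266227 counts, a cKO mouse from 4178461 to 8800987 and a dKO mouse from 552186 to 5396803, so every cKO mouse was read more deeply than every ctrl mouse. Levels are counts per 1000000 counted (CPM), scaled by TMM over the 15 mice. The 10 genes had between 2 and 469 counts per mouse in ctrl, between 40 and 1391 in cKO and between 10 and 623 in dKO, and 7 of the 70 ctrl values rested on fewer than 10 counts. Before TMM scaling, 3 counts were 7.50 CPM in ctrl T3, the shallowest mouse, and this floor covers counting error only. The excitatory neuron list (6 genes) summed to between 1530 and 2222 CPM and the apical progenitor list (8 genes) to between 415 and 691 CPM, although *Sox2* of the latter was at 0 counts in every mouse. Markers of tissue outside the cortical wall were uneven, with 2 choroid plexus genes between 0 and 57.8 CPM and 4 meninges genes between 0 and 59.1 CPM in sum. *Knl1* itself was at 62.8 ± 13.5 CPM in ctrl (SD, n = 7), 58.2 ± 14.9 in cKO (n = 4) and 49.8 ± 11.7 in dKO (n = 4), counted over its whole length and in all cells. *Trp53* was at 30.5 ± 10.6, 28.3 ± 4.26 and 25.1 ± 5.26 CPM in the same order. Neither passed an FDR of 0.05 in any comparison, and the counts do not separate the deleted exons from the rest of either gene.

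Per kb of exon, the 10 genes in ctrl cortex spanned from 38.9 ± 6.22 CPM per kb for *Mad1l1* to 1.85 ± 0.651 for *Mad2l1* (SD, n = 7), although their proteins bind each other in one complex. *Bub1b* came after *Mad1l1*, at 11.5 ± 2.46 CPM per kb. The mean gaps from *Mad1l1* to *Bub1b* and from *Bub1b* to *Ttk* (6.94 ± 1.84) were larger than the SD of either gene, and in 7 of 7 ctrl mice the first gene of each pair was above the next. Then came *Bub1* (6.44 ± 1.94), *Cdc20* (6.22 ± 4.36), *Zwilch* (5.08 ± 2.02), *Bub3* (4.79 ± 0.566), *Zw10* (4.45 ± 1.83) and *Kntc1* (4.33 ± 1.20). From *Ttk* down to *Kntc1* no gene differed from the next in the order by more than the SD of both. Only neighbours in the order were compared, so genes farther apart, such as *Ttk* and *Kntc1*, are not shown to be alike. *Kntc1* was above *Mad2l1* in 7 of 7 ctrl mice. The order in cKO and dKO had the same first gene and the same last gene.

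**Figure D1:**
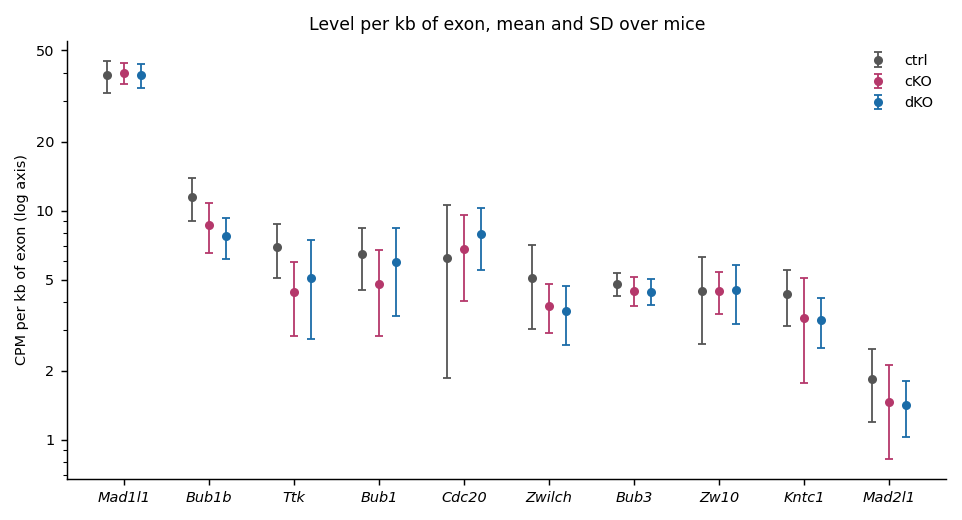
Level of each gene per kb of exon (CPM per kb, log axis) in ctrl (n = 7), cKO (n = 4) and dKO (n = 4), as mean with SD over mice, ordered by ctrl. *Mad1l1* stood near 39 CPM per kb in all 3 groups and *Mad2l1* below 2, with the other genes between them.

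These lengths set part of the order. With the longest coding transcript in place of all exons, *Bub3* was at 9.83 CPM per kb and moved from place 7 to place 4 of the order, *Ttk* at 11.9, *Zwilch* at 7.35 and *Mad1l1* at 53.7, while *Mad1l1* stayed first and *Mad2l1* last. *Mad2l1* has 8390 bases of exon, more than any other of the 10. Its longest coding transcript has 7557 bases, so the change of length moved *Mad2l1* little and cannot decide its place. A processed pseudogene, *Gm42430*, matches 454 bases of its transcript at 95.4% identity, so a part of its reads may be lost or shared. Parts of the exons of *Zwilch* (5.93% of bases, with *Lctl*), *Cdc20* (2.84%, with *Elovl1*) and *Mad1l1* (1.01%, with *Gm16121*) overlap a gene of the other strand, and the sources used here do not say whether counting used strand.

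Between groups, the comparisons used edgeR's likelihood ratio test with TMM scaling, on the counts of the 2 groups compared, and FDR values adjusted over all genes by the Benjamini–Hochberg procedure. In cKO versus ctrl, 0 of the 10 genes passed an FDR of 0.05, where 0.322% of the 25764 genes with a count did. At an unadjusted p below 0.05 there was 1 of 10, *Ttk*, against 10.8% of the 9157 genes with a mean of at least 10 CPM, a mean that all 10 genes reached. No gene of the 10 had groups that did not overlap, against 1.35% of those 9157 genes. In dKO versus ctrl the FDR count was again 0 (0.101% of 25669 genes with a count), 1 gene, *Bub1b*, had p below 0.05 (5.8% of 9180 genes), and none had groups apart (0.719%). In cKO versus dKO no gene passed an FDR of 0.05 (0.103% of 26283 genes), none had p below 0.05 (3.97% of 9184 genes) and none had groups apart (4.1%). Among 10 genes, 1 gene is the smallest share above 0 that such a count can show.

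The log2 fold change was below 0 for 8 of the 10 genes in cKO versus ctrl, with a median of −0.23, while 40.2% of genes of at least 10 CPM were below 0 and their median was 0.040. Without cKO S2 the median of the 10 was −0.46, with all 10 below 0, and without ctrl 6 it was −0.36, without cKO F3 −0.098 and without ctrl T5 −0.087. With wild-type ctrl only the median was −0.039, with 7 of the 10 below 0. Within batch 1 it was 0.039, with 3 of the 10 below 0. In dKO versus ctrl the log2 fold change was below 0 for 9 of the 10, with a median of −0.26, beside 46.7% and 0.013 over all such genes. Without dKO F7 the median was −0.098, with 7 of the 10 below 0, and it was −0.38 without dKO T8 and also without ctrl 6. With wild-type ctrl only it was −0.14, with 8 of the 10 below 0. Both comparisons use the same 7 ctrl mice, so they are not separate evidence. In cKO versus dKO 3 of the 10 were below 0 and the median was 0.069, beside 0.060 over all such genes. In a bulk sample, fewer cells that make an mRNA and less of that mRNA per cell cannot be told apart.

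**Figure D2:**
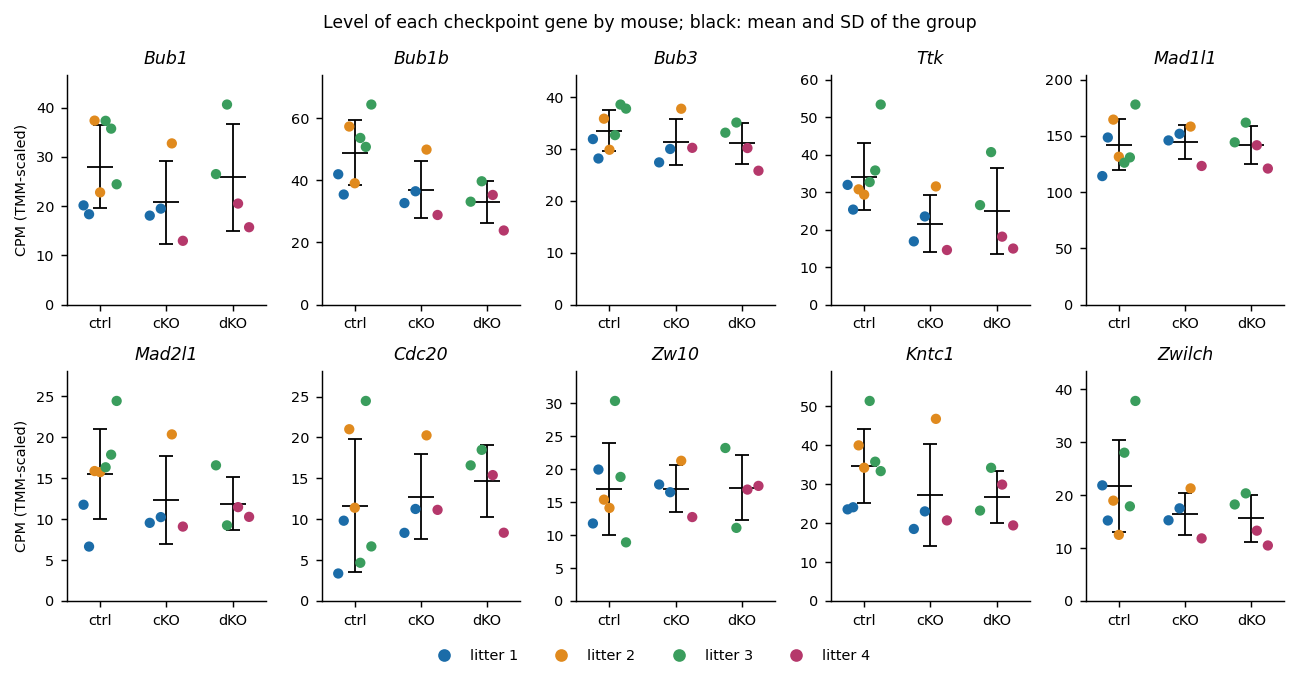
Level of each gene (CPM, TMM-scaled, each axis from 0) in every mouse of ctrl, cKO and dKO, coloured by litter, with the mean and SD of each group in black. The groups overlap for all 10 genes, and cKO S2 of litter 2 is the highest cKO mouse in all 10 panels.

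*Ttk* (ENSMUSG00000038379, chromosome 9 of GRCm38, 83834689 to 83872389) encodes MPS1, the kinase that starts the checkpoint at KNL1. In ctrl it went from 25.3 CPM in mouse 6, through a median of 31.9, to 53.4 CPM in T5. In cKO it was 16.9 CPM in 5, 23.5 in 7, 31.5 in S2 and 14.6 in F3, and in dKO 26.5 in T2, 40.7 in T8, 18.1 in F1 and 14.9 in F7. All 4 cKO mice were below the ctrl median and 3 of them below the lowest ctrl mouse, with S2 inside the ctrl range. In cKO versus ctrl its fold was 0.664 (95% interval 0.491 to 0.897, log2 fold change −0.59, standard error 0.22, edgeR FDR = 0.566). In dKO versus ctrl the fold was 0.711 (0.507 to 0.998), with an edgeR FDR of 1. Neither passed the FDR threshold. Without cKO S2 *Ttk* did, as the only one of the 10, at a log2 fold change of −0.83 (edgeR FDR = 0.0175), in a fit that called 1.49% of the 24957 genes with a count. Over the other 10 fits that left out 1 mouse it did not, and its log2 fold change came closest to 0, at −0.43, without F3. In dKO versus ctrl the log2 fold change of −0.49 was −0.85 without T8 and −0.25 without F7, with no call in either.

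The littermates give smaller and mixed differences for *Ttk*. In litter 1 both cKO mice were below both ctrl mice, and the log2 ratio of the means was −0.50. *Kntc1* had the same order in litter 1. With 2 mice against 2 such an order often arises by chance, and its share over all genes was not counted. In litter 2 the log2 ratio of the *Ttk* means was 0.070, with cKO S2 above ctrl S3 (30.7 CPM) and S1 (29.3 CPM). Fitted with a litter term, the log2 fold change in cKO versus ctrl was −0.19, and within batch 1, which held 3 cKO and 3 ctrl mice, it was −0.23. The 3 mice of litter 4, which had no ctrl, were among the 4 lowest of all 15 mice, at 14.6 (F3), 14.9 (F7) and 18.1 CPM (F1).

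*Bub1b* (ENSMUSG00000040084, chromosome 2, 118598211 to 118641591) encodes BUBR1, the checkpoint subunit that blocks CDC20. Its level in ctrl went from 35.5 CPM in mouse 6, through a median of 50.8, to 64.5 CPM in T5. In cKO it was 32.7 CPM in 5, 36.5 in 7, 49.9 in S2 and 28.9 in F3. In dKO it was 33.2 CPM in T2, 39.7 in T8, 35.3 in F1 and 23.9 in F7. All 8 mice with deletion were below the ctrl median, and 3 dKO mice were below the lowest ctrl mouse. The fold in dKO versus ctrl was 0.678 (95% interval 0.514 to 0.893, log2 fold change −0.56, standard error 0.20, edgeR FDR = 0.989), and in cKO versus ctrl 0.777 (0.603 to 1.002, edgeR FDR of 1). In litter 3, both dKO mice were below all 3 ctrl mice, with means of 36.4 and 56.3 CPM and a log2 ratio of −0.63. It was the only one of the 10 genes with that separation in litter 3, but the share of all genes that had it was not counted. With 2 mice against 3, such an order also arises by chance. Within batch 3, which held litters 3 and 4, the log2 fold change was −0.80. Between littermates of cKO and ctrl the ratio was smaller, −0.16 in litter 1 and 0.050 in litter 2.

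*Bub1* (ENSMUSG00000027379, chromosome 2, 127801122 to 127831865) encodes the kinase that, on KNL1, marks centromeric histone and recruits MAD1. It was between 18.4 and 37.4 CPM in ctrl, with a median of 24.5. The cKO mice were at 18.1 (5), 19.5 (7), 32.8 (S2) and 13.0 CPM (F3), and the dKO mice at 26.5 (T2), 40.7 (T8), 20.5 (F1) and 15.7 CPM (F7). The highest of all 15 mice was dKO T8 and the lowest cKO F3. Its fold was 0.754 in cKO versus ctrl (95% interval 0.534 to 1.07) and 0.884 in dKO versus ctrl (0.615 to 1.27), so a level of 0.534 times that of ctrl and an equal level are both within the first interval. The log2 fold change of −0.41 in cKO versus ctrl was −0.72 without cKO S2 (edgeR FDR = 0.190) and −0.23 without F3, with no call in either. In litters 1, 2 and 3 the log2 ratios of littermates were −0.036, 0.12 and 0.047.

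*Bub3* (ENSMUSG00000066979, chromosome 7, 131560222 to 131571895), the adaptor that docks BUB1 and BUBR1 on KNL1, was the steadiest of the 10. It was between 28.2 and 38.6 CPM in ctrl, 27.4 and 37.8 CPM in cKO, and 25.8 and 35.1 CPM in dKO. Over 15 mice its coefficient of variation was 12.4%, less than the 15.7% that counting alone gives, taken as the root of the mean of 1 over the counts. The fold was 0.952 in cKO versus ctrl (95% interval 0.760 to 1.19) and 0.911 in dKO versus ctrl (0.707 to 1.17), which bounds a difference in either direction more closely than for *Bub1*.

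*Mad1l1* (ENSMUSG00000029554, chromosome 5, 140008689 to 140321552) had the highest level and a similarly small spread. MAD1 also sits at nuclear pores outside mitosis. Its means were 142 ± 22.7 CPM in ctrl (SD, n = 7), 145 ± 15.3 in cKO (n = 4) and 142 ± 16.7 in dKO (n = 4). The fold was 1.01 in cKO versus ctrl (95% interval 0.849 to 1.20) and 0.991 in dKO versus ctrl (0.822 to 1.20). Its sign in cKO versus ctrl turned below 0 under other scalings, without leaving these limits. Its partner *Mad2l1* (ENSMUSG00000029910, chromosome 6, 66535390 to 66547220) varied more for its level, from 6.65 to 24.5 CPM in ctrl, on 7 to 31 counts. Over 15 mice the coefficient of variation was 36.1% for *Mad2l1*, beside 24.0% from counting alone. For *Mad1l1* these were 12.8% and 7.70%. In cKO *Mad2l1* was at 9.55, 10.3 and 9.09 CPM in 5, 7 and F3 and 20.4 in S2. In dKO it was between 9.24 and 16.6 CPM. The folds were 0.850 (95% interval 0.564 to 1.28) in cKO and 0.784 (0.519 to 1.18) in dKO versus ctrl. In cKO the log2 fold change of −0.23 was −0.58 without S2, −0.41 without ctrl 6, and −0.11 without F3 and also without ctrl T5, with no call in these fits. In litters 1 and 2 the cKO mean was above the ctrl mean, with log2 ratios of 0.11 and 0.37.

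*Cdc20* (ENSMUSG00000006398, chromosome 4, 118432901 to 118437352) encodes the APC/C activator that the checkpoint holds back. It had the largest ratio of highest to lowest level of the 10, 7.28, from 3.36 CPM in ctrl 2, which rests on 2 counts and is under the floor of 3, to 24.5 CPM in ctrl T4. Its coefficient of variation over 15 mice was 49.7%, beside the 34.1% that counting alone gives. The cKO mice were at 8.33, 11.3, 20.3 and 11.1 CPM in 5, 7, S2 and F3, and the dKO mice at 16.6, 18.5, 15.4 and 8.34 CPM in T2, T8, F1 and F7. Its folds, 0.997 (95% interval 0.635 to 1.57) in cKO and 1.09 (0.676 to 1.77) in dKO versus ctrl, leave room for differences in both directions at this depth. In the littermates of litters 1, 2 and 3 the log2 ratios were all above 0, at 0.57, 0.32 and 0.55, with the animals overlapping in each.

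The 3 RZZ genes differed in their values, with intervals that overlapped. *Kntc1* (ENSMUSG00000029414, chromosome 5, 123749716 to 123821593), the ROD scaffold, was between 23.5 and 51.4 CPM in ctrl with a median of 34.2. In cKO it was 18.5 CPM in 5, 23.0 in 7, 46.8 in S2 and 20.7 in F3, so 3 cKO mice were below every ctrl mouse and S2 was above 6 of the 7. In dKO it was between 19.4 and 34.2 CPM, with no mouse above the ctrl median. The log2 fold changes were −0.31 (95% interval −0.80 to 0.17) in cKO and −0.35 (−0.79 to 0.082) in dKO versus ctrl. Without cKO S2 the log2 fold change of *Kntc1* in cKO was −0.71 (edgeR FDR = 0.0579), against −0.31 with it, and under a litter term it was 0.065. *Zwilch* (ENSMUSG00000032400, chromosome 9, 64137144 to 64173104), a further subunit of RZZ, was at 21.7 ± 8.64 CPM in ctrl, 16.5 ± 3.97 in cKO and 15.6 ± 4.51 in dKO. Its folds were 0.851 (95% interval 0.619 to 1.17) and 0.739 (0.510 to 1.07). *Zw10* (ENSMUSG00000032264, chromosome 9, 49055613 to 49078775), which also acts in membrane traffic between mitoses, was at 17.0 ± 7.00, 17.0 ± 3.52 and 17.2 ± 4.95 CPM, with folds of 1.01 (0.749 to 1.35) and 0.993 (0.714 to 1.38). The differences between the 3 genes were not tested.

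**Figure D3:**
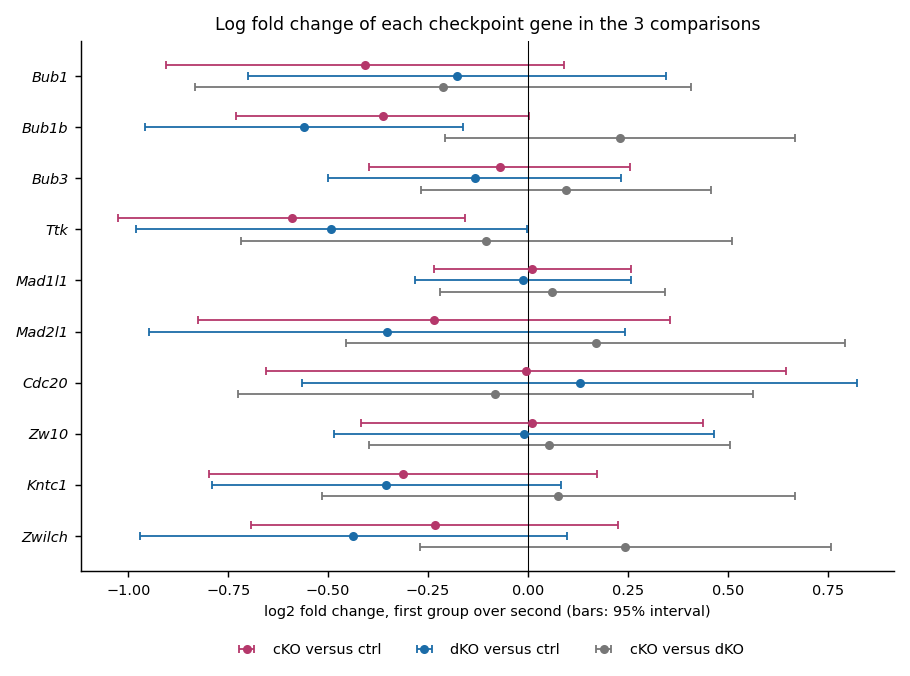
Log2 fold change of each gene (x axis, first group over second) with its 95% interval for cKO and dKO each against ctrl, and for cKO against dKO. Most points against ctrl lie left of 0, and the intervals that leave out 0 are those of *Ttk* in both comparisons with ctrl, ending at −0.0032 in dKO, and of *Bub1b* in dKO.

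The cKO and dKO mice differed by *Trp53*, and also by batch and litter. All dKO mice were in batch 3, where F3 was the only cKO mouse. The main fit did not separate these. Between cKO and dKO the largest log2 fold change was 0.24 for *Zwilch* (95% interval −0.27 to 0.76), followed by 0.23 for *Bub1b* (−0.21 to 0.67) and −0.21 for *Bub1* (−0.83 to 0.41). Of the 4 dKO mice, T8 was the highest for 8 of the 10 genes and F7 the lowest for 8. In litter 4, where cKO F3 can be set beside dKO F1 and F7, F3 was below both for *Bub1*, *Mad2l1*, *Ttk* and *Zw10* and above both for *Bub3*. With 1 mouse against 2, such an order often arises by chance, and its share over all genes was not counted. With batch as a covariate the log2 fold change in cKO versus dKO was below 0 for 9 of the 10 genes, with a median of −0.30, against a median of 0.069 without it. None of the 10 had p below 0.05 in either fit.

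The values also differed between litters. In the 2 litters with both cKO and ctrl mice, the log2 ratio of the means was below 0 for 6 of the 10 genes in litter 1 (median −0.050) and for 0 of the 10 in litter 2 (median 0.26). In litter 2 cKO S2 was above both ctrl littermates for 6 genes. For 1 mouse against 2 that is an order that chance often gives, and its share over all genes was not counted. In litter 3, dKO against ctrl, the log2 ratio was below 0 for 7 of the 10 (median −0.22). With litter as a covariate 2 of the 10 genes had a log2 fold change below 0 in cKO versus ctrl (median 0.087) and 7 of 10 in dKO versus ctrl (median −0.22), with no gene at p below 0.05 in either. Within batch 3 the dKO values were farther from ctrl, with all 10 below 0 and a median of −0.53, beside 0.049 over all genes of at least 10 CPM, and 5 of the 10 had p below 0.05, against 7.83% of those genes. That batch sets dKO mice of litters 3 and 4 against ctrl mice of litter 3 alone, 2 of 3 of them heterozygous. The part of the litter in these differences was not tested apart from these fits.

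**Figure D4:**
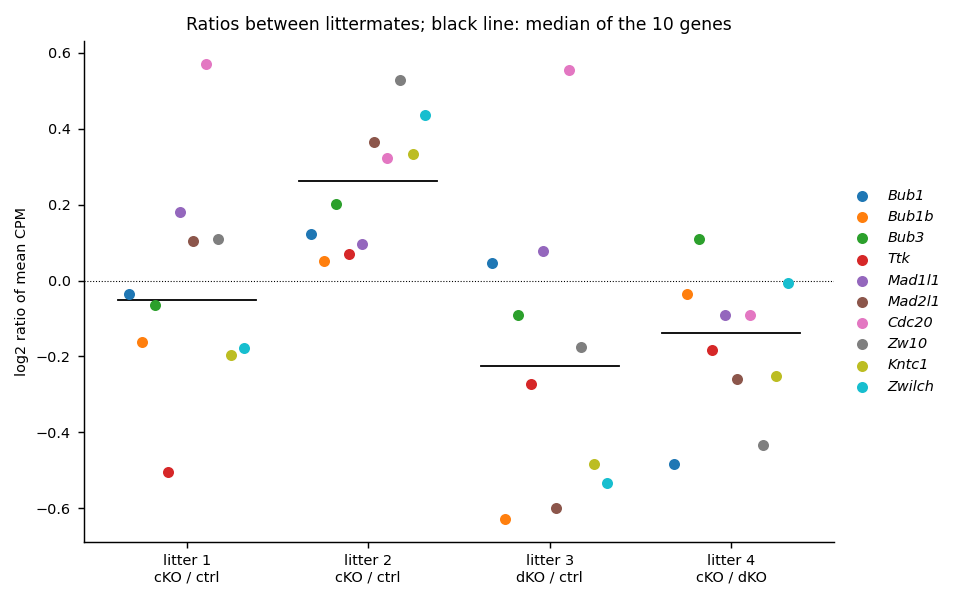
Log2 ratio of the mean CPM between littermates of different genotype for each gene, with cKO over ctrl in litters 1 and 2, dKO over ctrl in litter 3 and cKO over dKO in litter 4, and the median of the 10 genes as a black line. The median was −0.050, 0.26, −0.22 and −0.14 in litters 1 to 4.

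The same mice held the extremes of many of the 10 genes. Summed over the 10, the level was between 312 and 469 CPM in ctrl, 275 and 440 CPM in cKO, and 267 and 411 CPM in dKO. cKO S2 was the highest cKO mouse for all 10 genes and F3 the lowest for 7. The proliferation list (18 genes of S phase and mitosis) summed to between 721 and 1439 CPM in ctrl, 791 and 1244 CPM in cKO, with S2 at the top, and 731 and 1249 CPM in dKO, with T8 at the top. Over the 15 mice, Pearson's r of a gene's log2 CPM with the mean log2 CPM of that list was 0.84 for *Cdc20*, 0.64 for *Kntc1*, 0.62 for *Bub1* and 0.61 for *Bub3*, and 0.032 for *Zwilch* and −0.0071 for *Zw10*. These points share their libraries, and depth differs between them, so the r values are a description. Ctrl T5 stood apart, with the highest sum of the 10 genes (469 CPM) and a proliferation sum below the median of ctrl, at 417440 counts in all.

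**Figure D5:**
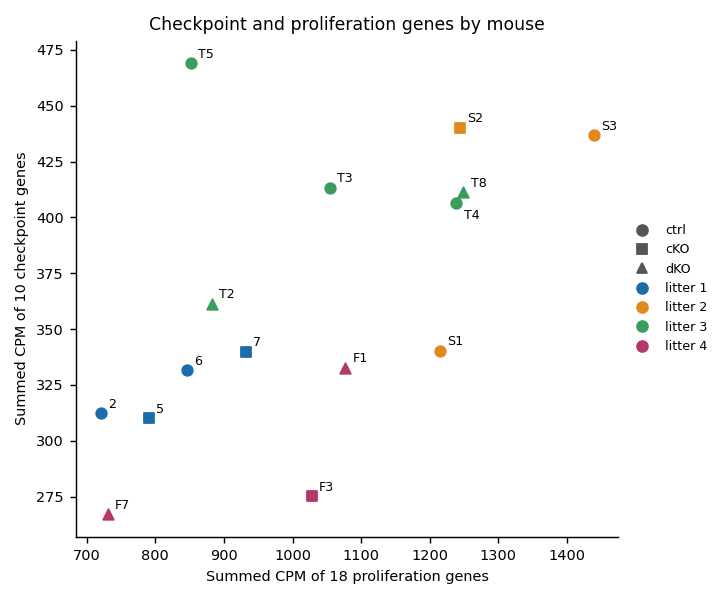
Summed CPM of the 10 checkpoint genes (y axis) against summed CPM of the 18 proliferation genes (x axis) for each of 15 mice, marked by group and coloured by litter. The litter 1 mice of both genotypes sit at the lower left, S2, S3, T4 and T8 at the upper right, and T5 above the rest at 469 CPM.

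Among 5527 other protein-coding genes with at least 10 counts in every mouse, the 5 whose log2 CPM followed the mean of the 10 most closely over 15 mice were *Cdca2* (Pearson's r = 0.94, Spearman's rho = 0.90), *Kif4* (0.91 and 0.88), *Ect2* (0.91 and 0.83), *Rad51b* (0.90 and 0.86) and *Wdhd1* (0.90 and 0.87). *Cdca2* recruits the phosphatase PP1 to anaphase chromatin, *Kif4* is a chromosome kinesin, and *Ect2* starts the cleavage furrow. *Rad51b* takes part in recombination repair and *Wdhd1* in replication. They were picked for this likeness, so the r values are no test, and without the 2 mice farthest from the median each r was between 0.87 and 0.95.

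Of the 60 genes on 4 lists of the same pathway, 0 were called higher and 0 lower in each of the 3 comparisons. Over all genes with a count, 0.322% were called in cKO versus ctrl, 0.101% in dKO versus ctrl and 0.103% in cKO versus dKO. In cKO versus ctrl 43 of the 60 had a log2 fold change below 0 (median −0.10), in dKO versus ctrl 31 (median −0.030) and in cKO versus dKO 33 (median −0.041). For the 10 genes of the KMN network, the kinetochore core that holds KNL1, the medians against ctrl were −0.071 in cKO and −0.12 in dKO. For the 16 genes of checkpoint silencing and recruitment they were −0.043 and 0.060, for the 22 of the APC/C and its targets −0.11 and −0.031, and for the 12 mitotic kinases and drivers −0.19 and −0.12. At an unadjusted p below 0.05 were 1 of the 60 in cKO versus ctrl, 3 in dKO versus ctrl and 1 in cKO versus dKO. The shares of genes of at least 10 CPM were 10.8%, 5.8% and 3.97%. The listed genes, chosen here after their values were seen, were *Anapc11*, an APC/C subunit, in cKO versus ctrl (log2 fold change −0.50, edgeR FDR = 0.461), *Ccna2*, cyclin A2, in dKO versus ctrl (−0.63, edgeR FDR = 0.853), *Nsl1* of the KMN network in dKO versus ctrl (−0.70), and *Sgo2a*, a guardian of centromeric cohesion, in dKO versus ctrl (−0.50) and cKO versus dKO (0.47). Of the proliferation list, which shares 4 genes with these lists, 0 of 18 were called in any comparison, with medians of −0.16 and −0.11 against ctrl in cKO and dKO.

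Markers of the cell types in the cortex moved between the same groups, and their part in the values of the 10 genes was not tested. Of the 5 intermediate progenitor genes, 2 were called lower in cKO versus ctrl, where 0.322% of genes with a count were called. None was called in dKO versus ctrl. All 5 had a log2 fold change below 0 in both comparisons with ctrl. At p below 0.05 were 2 in cKO and 3 in dKO, against 10.8% and 5.8% of genes of at least 10 CPM. Their sum was between 148 and 209 CPM in ctrl, 79.6 and 155 CPM in cKO and 97.0 and 172 CPM in dKO. Of the 8 apical progenitor genes none was called, and *Sox2*, without counts, could not be. *Sox2* is kept in the 8 but has no measured fold change. In cKO versus ctrl 7 of the 8 had a log2 fold change below 0 and 3 had p below 0.05. In dKO versus ctrl these numbers were 5 and 0. The apical progenitor sums were between 415 and 691 CPM in ctrl, 449 and 574 CPM in cKO and 464 and 640 CPM in dKO. The interneuron list (6 genes) had 1 gene called higher in cKO versus ctrl, where 0.322% of genes with a count were called. In that comparison 0 of the 6 had a log2 fold change below 0. At p below 0.05 were 5 of the 6, against 10.8% of genes of at least 10 CPM. The list summed to between 382 and 806 CPM in ctrl and 712 and 873 CPM in cKO. Of the choroid plexus genes 1 of 2 was called lower in cKO, against both ctrl and dKO, and of the erythroid genes 1 of 5 was called higher in dKO versus ctrl. Over all genes with a count, 0.322%, 0.103% and 0.101% were called in these comparisons, in that order. No gene of the excitatory neuron, microglia, endothelium or meninges lists was called in any comparison.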

How the data were processed

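The authors trimmed Click-seq reads with cutadapt 1.13, aligned them to GRCm38/mm10 with STAR 2.5.2a, removed PCR copies by UMI with UMI-tools 0.5.3 and counted reads on genes with HTSeq 0.6.1p1 in intersection-nonempty mode. The deposited values are raw counts per gene and library. The annotation release and the strand setting are not given in the sources used here. Symbols and exon lengths came from GENCODE M21, which matched 51719 of 51912 identifiers, and promoters from RefSeq.

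The 5 HTSeq summary lines (21.6% to 38.7% of a file) were left out. Libraries S2 and S2b of 1 mouse were summed (chi-square per degree of freedom 1.14 over 13658 genes). The 2 groups of a comparison were fitted alone, in R 4.3.3 with edgeR 4.0.16 (TMM, glmFit, glmLRT, no covariate, no filter, FDR by Benjamini–Hochberg over all genes, threshold 0.05). edgeR, the likelihood ratio test and the FDR follow the study's methods, while TMM, no covariate, no filter and the fit of 2 groups alone were chosen here. The fit was tested on simulated data. Intervals are log2 fold change with its Wald standard error. Nothing states more than 1 library per mouse apart from S2, so p-values measure the spread between embryos, some of them littermates. r values used log2 CPM with a prior count of 2. Alternatives were the quasi-likelihood F test, DESeq2 1.42.0, RLE or no scaling factors, filterByExpr, all 3 groups in one fit, batch, sex or litter as a covariate, wild-type ctrl only, 1 batch only, 1 library of S2, and leaving out each mouse. The genes and lists were chosen with earlier results of these data known. The rule for named genes gave the 10, *Knl1*, *Trp53*, any called gene of the pathway lists (0 were) and the 5 of closest pattern. *Anapc11*, *Ccna2*, *Nsl1* and *Sgo2a* were named after their values were seen.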

Additional observations from a re-analysis of the deposited data

Results flagged for a closer look

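A mouse stood apart from the rest of its group, by Dixon's test at the 95% level, in 4 of the 42 groups of values examined, where chance alone flags about 1 in 20 groups. In cKO S2 *Mad2l1* was at 20.4 CPM, with the next cKO mouse at 10.3 CPM and the lowest at 9.09. In the same mouse *Kntc1* was at 46.8 CPM, with the others between 18.5 and 23.0 CPM, and *Knl1* at 80.4 CPM, with the others at 51.8 CPM or less. These 3 come from 1 mouse, so they are not separate. In ctrl T5 *Ttk* was at 53.4 CPM, with the next ctrl mouse at 35.8 CPM and the lowest at 25.3, in one of the shallowest mice.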

How the results depend on the processing

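None of the 10 genes was called in any comparison under any setting tried, except *Ttk* in cKO versus ctrl without cKO S2 (0 to 1 gene called over the fits without 1 mouse, against 0). Of 651 alternative log2 fold changes of the 10 genes, 559 kept direction and side of the threshold and 91 changed sign. *Ttk* and *Bub1b* kept their sign against ctrl in every fit. *Ttk* was between −0.83 and −0.19 in cKO and between −0.85 and −0.18 in dKO. *Bub1b* was between −0.54 and −0.043 in cKO and between −0.80 and −0.37 in dKO. The sign never changed for 2 of the 10 genes in cKO versus ctrl and for 6 of the 10 in dKO versus ctrl. DESeq2 gave no adjusted p for 9 of the 10 genes in dKO versus ctrl, so these are left out. Replicate names tie no mice across groups. Litter does, and its fits are given here. The cause of the changes that follow was not tested.

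In cKO versus ctrl, *Mad1l1* and *Zw10* became −0.035 and −0.033 with DESeq2, −0.036 and −0.03 with RLE factors, −0.085 and −0.073 with total counts only, −0.039 and −0.034 with filterByExpr, −0.037 and −0.07 with batch and −0.0029 and −0.0053 with sex as a covariate. With litter as a covariate *Bub1* became 0.05, *Bub3* 0.074, *Mad2l1* 0.35, *Cdc20* 0.25, *Kntc1* 0.065 and *Zwilch* 0.18. Within batch 1 *Bub3* became 0.025, *Mad2l1* 0.31, *Cdc20* 0.12, *Kntc1* 0.018 and *Zwilch* 0.054. With wild-type ctrl only *Bub3* became 0.022, *Cdc20* 0.19 and *Zw10* −0.0019. *Cdc20* became 0.008 with all 3 groups in one fit and 0.015 with library S2b alone. Without 1 mouse *Mad1l1* was between −0.036 and 0.081, *Cdc20* between −0.35 and 0.22, and *Zw10* between −0.13 and 0.13.

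In dKO versus ctrl, *Cdc20* became −0.0023 with batch as a covariate and −0.044 within batch 3, *Bub1* became 0.08 and *Mad1l1* 0.12 with litter as a covariate, and *Mad1l1* 0.012 with wild-type ctrl only. Without 1 mouse *Bub1* was between −0.50 and 0.052, *Mad1l1* between −0.086 and 0.076, *Cdc20* between −0.016 and 0.38, and *Zw10* between −0.092 and 0.091.

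In cKO versus dKO, *Bub1b*, *Mad2l1*, *Mad1l1*, *Zw10*, *Kntc1* and *Zwilch* became −0.13, −0.29, −0.17, −0.38, −0.34 and −0.23 with batch as a covariate and −0.13, −0.28, −0.17, −0.38, −0.32 and −0.26 within batch 3. *Mad2l1*, *Mad1l1*, *Zw10* and *Kntc1* became −0.23, −0.07, −0.42 and −0.21 with litter as a covariate. *Mad1l1*, *Zw10* and *Kntc1* became −0.048, −0.019 and −0.013 with total counts only, and *Mad1l1* −0.00024 with filterByExpr. Without 1 mouse *Bub1* was between −0.53 and 0.11, *Bub3* between −0.032 and 0.16, *Mad2l1* between −0.21 and 0.29, *Mad1l1* between −0.019 and 0.13, *Ttk* between −0.36 and 0.27, *Cdc20* between −0.41 and 0.089, *Zw10* between −0.11 and 0.17, and *Kntc1* between −0.34 and 0.23.

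Per kb of the longest coding transcript, the ctrl level was 9.83 CPM for *Bub3*, 53.7 for *Mad1l1*, 11.9 for *Ttk* and 7.35 for *Zwilch*, each more than 1 SD from its level per kb of exon. The count over all genes was more unstable than these values. In cKO versus ctrl it was 83 and went from 13 within batch 1 to 373 without cKO S2, in dKO versus ctrl it was 26 and went from 4 with litter as a covariate to 113 with the quasi-likelihood F test, and in cKO versus dKO it was 27 and went from 1 within batch 3 to 184 with that test. Depth limits what the ctrl values can show, since every ctrl mouse had fewer counts than any cKO mouse.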
